A study of Homo sapiens with 12 samples.

Results

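The estrogen receptor gene ESR1, 4 transcription factors that shape where the receptor binds (FOXA1, GATA3, TFAP2A and TFAP2C), 3 steroid receptor coactivators (NCOA1, NCOA2 and NCOA3) and the corepressor NCOR1 were followed in RNA-seq of T47D cells. These 9 genes were taken by symbol from a count table of 25370 genes, of which 21132 had a count in any library and were tested. T47D is a breast carcinoma cell line of luminal type that makes the receptor. The 12 libraries fell into 4 groups of 3, lettered a, b and c: vehicle, anastrozole (10 nM, an inhibitor of aromatase), E2 (17β-estradiol, 0.1 nM), and both agents at the same doses, called anastrozole plus E2. All cells, vehicle included, had spent 48 h in medium with 5% charcoal-stripped serum, which is depleted of steroids, and then 24 h without serum. The sample labels give 12 h of treatment, and the published methods give a longer time. The published methods describe gene expression data as coming from independent experiments, while the labels do not say whether the lettered libraries were separate cultures, and p-values measure the spread between these libraries.

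ERα, the product of ESR1, is a nuclear receptor that binds estradiol, dimerizes and binds estrogen response elements, mostly in distal enhancers. FOXA1 is a forkhead pioneer factor that opens chromatin at such enhancers, GATA3 is a zinc finger factor of the luminal lineage that binds beside it, and TFAP2A and TFAP2C encode AP-2α and AP-2γ, which occupy many of the same sites. With estradiol bound, the receptor recruits the coactivators NCOA1, NCOA2 and NCOA3, which bring histone acetyltransferases, whereas NCOR1 is a scaffold for histone deacetylases. A fall of ESR1 mRNA after estradiol has been described in some estrogen-deprived breast cancer cell lines, and does not hold for every line.

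E2 lowered the mRNA of 3 of these genes, ESR1, FOXA1 and TFAP2A, where 12.0% of all tested genes passed in either direction, and their sequences just upstream of a start site are shown for that reason. The TFAP2A call was lost in 3 of 8 alternative settings and in 4 of 6 fits that left out a library. The bases come from RefSeq (GRCh38.p14) and read 5′ to 3′ on each gene's strand. Printed is the longest stretch without an annotated exon within 250 bases before the start, in lower case with any match to a searched motif in capitals. For ESR1 and FOXA1 the start is that of the MANE Select transcript, and for TFAP2A the outermost of 2 listed starts, since neither was the MANE Select one. The stretches lie at chr6:151807510-151807678 (plus strand, bases -172 to -4 from the start), chr14:37595349-37595499 (minus strand, -250 to -100) and chr6:10419660-10419909 (minus strand, -250 to -1).
ESR1: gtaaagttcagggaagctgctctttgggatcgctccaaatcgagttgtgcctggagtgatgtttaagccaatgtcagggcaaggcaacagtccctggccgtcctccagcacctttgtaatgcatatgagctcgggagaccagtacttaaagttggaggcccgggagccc
FOXA1: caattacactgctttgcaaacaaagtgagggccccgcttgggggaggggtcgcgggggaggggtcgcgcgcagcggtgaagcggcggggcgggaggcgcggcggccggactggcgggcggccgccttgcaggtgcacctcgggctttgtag
TFAP2A: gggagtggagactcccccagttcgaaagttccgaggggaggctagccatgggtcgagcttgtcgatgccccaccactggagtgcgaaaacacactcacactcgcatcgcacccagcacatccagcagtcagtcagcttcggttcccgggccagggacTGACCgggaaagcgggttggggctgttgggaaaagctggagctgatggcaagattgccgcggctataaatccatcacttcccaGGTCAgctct

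The capitals in the TFAP2A stretch are copies of the estrogen response element core (GGTCA on either strand), at -93 to -89 on the opposite strand and at -10 to -6 on the gene's strand. Both strands of the 250 bases before every listed start were searched for the full element (GGTCANNNTGACC, which contains the core), the core, and motifs of other factors. TGTTTAC was used for forkhead factors, AGATAA for factors of the GATA3 family, and GCCNNNGGC for AP-2. Neither the ESR1 start shown nor the single FOXA1 start held any of these, while 1 of the 6 ESR1 starts held a core. Among 35116 windows of the same length in the RefSeq table, 32.6% held the core, 0.0399% the full element, 2.98% the forkhead motif, 9.17% that of the GATA3 family and 19.8% the AP-2 motif. GATA3 had a core in 3 of its 6 windows and an AP-2 motif in 3, NCOA1 had a match for the GATA3 family in 1 of 3 windows, and NCOA3 (1 window) and NCOR1 (2 windows) had no match. These are matches of letters, and which start T47D cells use was not measured. No window of TFAP2C or NCOA2 was available in the sources used here, so neither gene was searched.

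Luminal markers were high in every library. Reads counted on genes numbered from 9914253 to 17009776 per library, and the lowest count of any of the 9 genes in a library was 495 (NCOA1). Anastrozole libraries a and c were the least alike replicate pair (chi-square over its degrees of freedom 4.62, and 1.27 to 2.56 in all other pairs). The 7 luminal markers, among them KRT8, KRT18, EPCAM and PGR, summed in CPM (a count after TMM has brought all libraries to one size) to between 11410 and 11530 with vehicle, 10460 and 11220 with anastrozole, 10870 and 11140 with E2, and 11060 and 11290 with both. Every treated library thus lay below every vehicle library in this sum. The 4 basal markers summed to 9.79 to 11.9 CPM with vehicle, 10.8 to 13.6 with anastrozole, 12.5 to 13.8 with E2 and 12.8 to 14.4 with both. The 4 fibroblast markers summed in the same order to 91.5 to 95.9, 85.2 to 93.0, 80.3 to 91.0 and 94.9 to 100.4 CPM, and the 3 immune markers to 3.27 to 4.59, 5.46 to 7.14, 5.02 to 5.83 and 5.00 to 5.79 CPM. The 2 endothelial markers summed to at most 0.622 CPM in any library. COL1A1 (up to 99.9 CPM), ACTA2 (up to 12.5 CPM) and CD68 (up to 7.14 CPM) made up most of these sums. KRT5, COL1A2, CD3E and PECAM1 stayed under 3 counts in all 12 libraries, whereas TP63, a basal marker, reached 31 counts and was at 3 or more in all 12. The part of these shifts in the results below was not tested. In bulk RNA, fewer cells of a type and less RNA per cell cannot be told apart.

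The receptor itself was not the most abundant of its partners. Per length, in TPM (counts per exon base, scaled to one total in every library) of vehicle cells, GATA3 stood highest at 881 ± 28.7 (SD, n = 3), above 99.4% of 18184 detected genes of known length. FOXA1 followed at 373 ± 14.4, TFAP2C at 263 ± 1.49 and NCOA3 at 105 ± 6.55. TFAP2A at 62.0 ± 2.83 and ESR1 at 61.5 ± 2.41 lay within one SD of each other. The other cofactors were lower, with NCOA2 at 34.5 ± 2.77, NCOR1 at 30.9 ± 2.38 and NCOA1 at 24.7 ± 1.36, and the SD ranges of NCOA2 and NCOR1 overlapped. Lengths are all annotated exon bases of each gene, from 3001 for TFAP2C to 15620 for NCOR1, so isoform use could shift this order. On GRCh37, the assembly behind hg19, ESR1 spans chr6:151977826-152450754 on the plus strand with 13726 exon bases, FOXA1 chr14:38058757-38065264 on the minus strand with 4414, and TFAP2A chr6:10393419-10419892 on the minus strand with 8220.

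Across all 12 libraries and 4 conditions the levels of each gene stayed close. The ratio of the highest to the lowest library was between 1.10 for NCOA1 and 1.22 for NCOR1 and NCOA2. Within groups, the SD of CPM was between 0.545% and 7.92% of the mean.

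**Figure D1:**
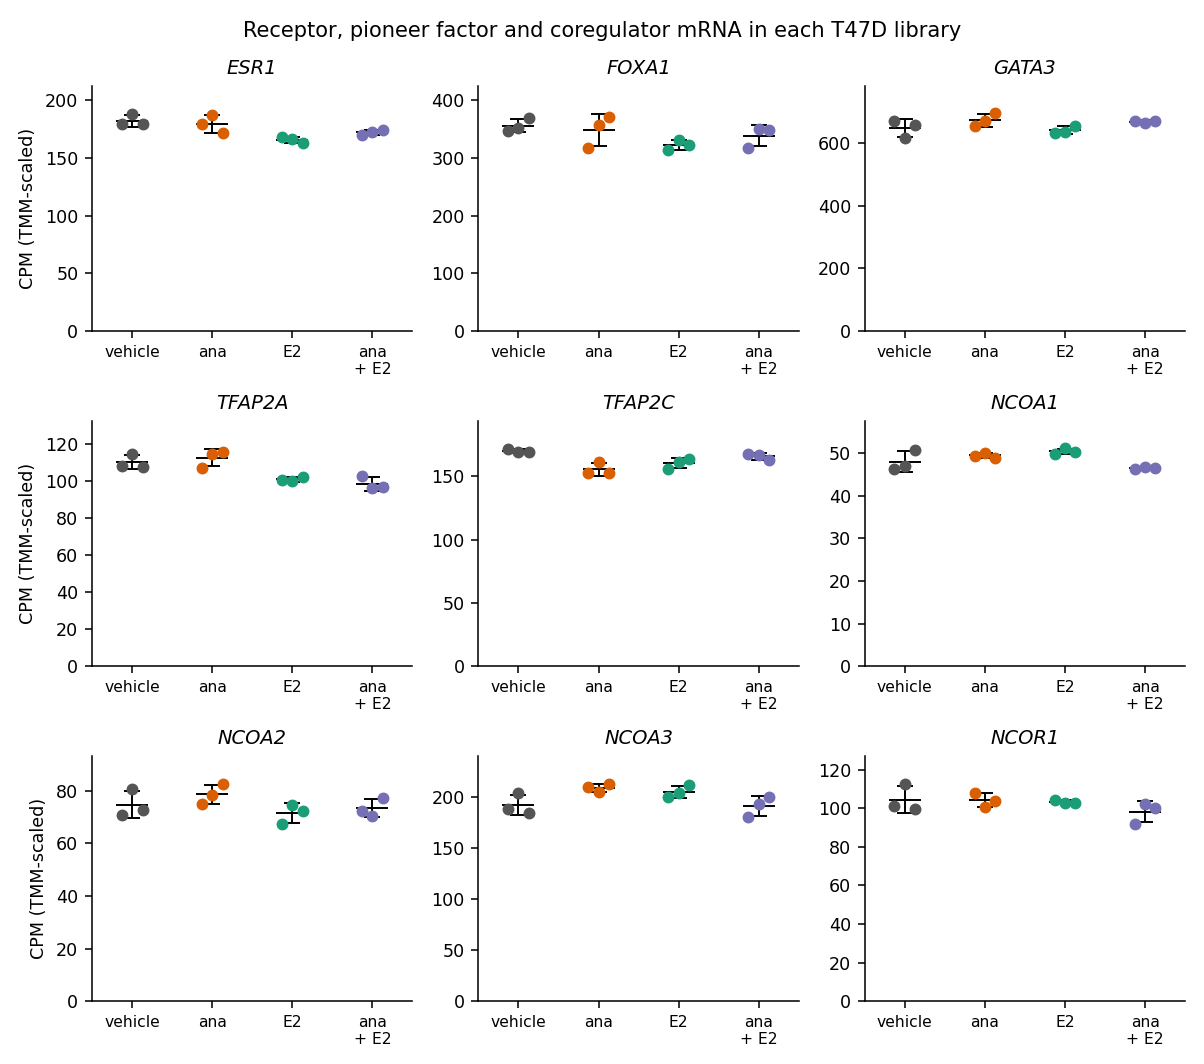
CPM scaled by TMM (vertical axes, from 0) of the 9 genes in each of the 12 libraries, with points for libraries a, b and c of the 4 groups and black marks for mean and SD (ana, anastrozole). The 3 E2 libraries lie below the 3 vehicle libraries for ESR1, FOXA1 and TFAP2A, as they do for TFAP2C, while GATA3 and NCOR1 overlap between these groups.

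The first comparison asked what estradiol did to the receptor and its partners in deprived cells. E2 lowered ESR1, FOXA1 and TFAP2A, by about the same share of the vehicle level. Of the 9 genes, 3 passed the threshold (edgeR quasi-likelihood test, Benjamini-Hochberg adjusted p under 0.05), all 3 lower, where 12.0% of all tested genes passed. The median log2 fold change of the 9 was -0.06, beside 0.00 over all tested genes. The libraries of the 2 groups did not overlap for 4 of the 9, those 3 and TFAP2C, and for 25.4% of all tested genes.

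ESR1 was at 179.65, 188.5 and 179 CPM in the vehicle libraries, in the order a, b, c used throughout, and at 169, 166 and 163 CPM with E2. Every E2 library lay below every vehicle library. The level fell by 9.09%, a log2 fold change of -0.14 (SE 0.04, 95% interval -0.21 to -0.06, adjusted p = 0.0038). FOXA1 was at 347, 353 and 369 CPM in vehicle and at 314, 331 and 322 CPM with E2, again without overlap. It fell by 9.46% (log2 fold change -0.14, SE 0.03, adjusted p = 0.00033). Both genes stayed past the threshold under all 8 alternative settings and with any 1 of the 6 libraries left out. The log2 fold change of ESR1 then ranged from -0.18 to -0.11, and that of FOXA1 from -0.16 to -0.12.

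TFAP2A was at 108, 115 and 108 CPM in vehicle and at 100.4, 99.8 and 102 CPM with E2. The groups did not overlap, and the level fell by 8.49% (log2 fold change -0.13, SE 0.04, adjusted p = 0.03). The call was lost with DESeq2 (adjusted p = 0.077), with limma-voom (0.066), with the replicate letter in the fit (-0.13, 0.056), without vehicle library b (-0.10, 0.16), and without E2 library a (-0.12, 0.089), b (-0.12, 0.12) or c (-0.14, 0.062). TFAP2C, the other AP-2 gene, was at 172, 169 and 169.5 CPM in vehicle and at 156, 161 and 164 CPM with E2, with a log2 fold change of -0.08 (adjusted p = 0.14) that did not pass although the groups did not overlap.

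GATA3 was at 669, 615 and 656 CPM in vehicle and at 633, 636 and 655 CPM with E2. The groups overlapped, and the 95% interval of its log2 fold change was -0.07 to 0.05. The coactivators did not pass either, with log2 fold changes of 0.07 for NCOA1, -0.06 for NCOA2 and 0.09 for NCOA3. NCOA3 came nearest at an adjusted p of 0.065, and without vehicle library b it passed (0.14, adjusted p = 0.0031). That library held NCOA3 at 203 CPM, against 188 and 184 CPM in the other vehicle libraries. NCOR1 was at 101, 112 and 99.5 CPM in vehicle and at 104, 103 and 103 CPM with E2, with an interval of -0.10 to 0.07.

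Fold changes in this comparison followed the GC content of the genes. Across 10842 genes of at least 3 log2 CPM, Spearman's rho between log2 fold change and exon GC content was -0.55. Genes are not independent replicates, and an adjustment for GC also removes any true change that follows it. With the trend of each library on GC content removed, the log2 fold change was -0.18 for ESR1 (adjusted p = 9.5e-06), -0.14 for FOXA1 (0.00014) and -0.14 for TFAP2A (0.014), all 3 still past the threshold.

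**Figure D2:**
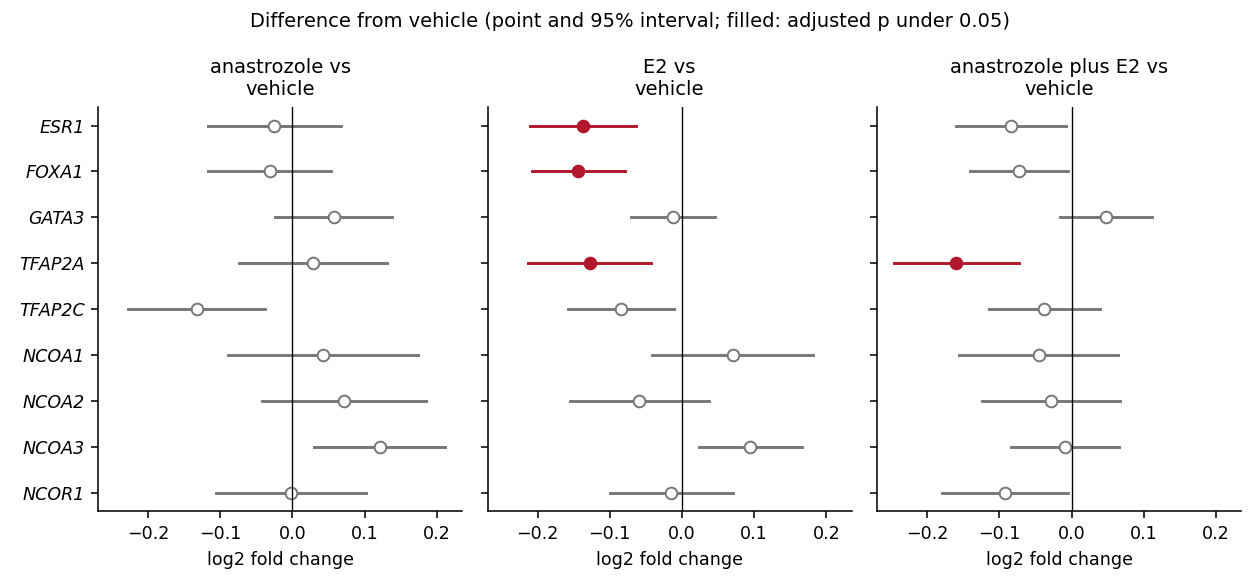
Log2 fold change against vehicle with its 95% interval for the 9 genes, by treatment; filled red points have an adjusted p under 0.05. E2 has 3 such points, all to the left of 0, anastrozole has none, and anastrozole plus E2 has TFAP2A alone.

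Anastrozole alone was compared with vehicle to see whether the inhibitor moved the same machinery without added estradiol. None of the 9 genes passed the edgeR test, where 3.67% of all tested genes did. At an unadjusted p under 0.05 there were 2, TFAP2C and NCOA3, beside 3198 of the 21132 genes, and DESeq2 and limma-voom called 0 each. ESR1 was at 179.6, 187 and 172 CPM with anastrozole, overlapping vehicle, with a log2 fold change of -0.025 (SE 0.05, 95% interval -0.12 to 0.07, adjusted p = 0.89).

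TFAP2C was at 152, 161 and 153 CPM with anastrozole, below all vehicle libraries (log2 fold change -0.13, SE 0.05, adjusted p = 0.10). NCOA3 was at 209, 204 and 212 CPM, above all vehicle libraries (0.12, SE 0.05, adjusted p = 0.13). They were the 2 of 9 without overlap, which 17.7% of all tested genes also showed. These 2 did pass when all 12 libraries shared 1 fit, at adjusted p of 0.033 for TFAP2C and 0.047 for NCOA3, and NCOA3 passed without vehicle library b (0.17, 0.048). FOXA1 was at 318, 357 and 371 CPM with anastrozole, a wider range than in any other group. The other 5 genes, GATA3, TFAP2A, NCOA1, NCOA2 and NCOR1, had log2 fold changes from -0.0023 for NCOR1 to 0.07 for NCOA2. With the GC trend removed, GATA3 passed (0.12, adjusted p = 0.0096); its levels with anastrozole were 653, 671 and 695 CPM.

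With anastrozole and E2 together, TFAP2A was the only gene of the 9 past the threshold against vehicle, where 5.04% of all tested genes passed. It was at 103, 96.0 and 96.9 CPM, below every vehicle library, and fell by 10.5% (log2 fold change -0.16, SE 0.04, adjusted p = 0.01). DESeq2 (adjusted p = 0.072) and limma-voom (0.12) did not call it, and it was lost without vehicle library b (-0.13, 0.093) or without library b (-0.14, 0.13) or c (-0.15, 0.10) of the combined treatment. ESR1 was at 169.7, 173 and 174.5 CPM, below every vehicle library, with a log2 fold change of -0.08 (SE 0.04, 95% interval -0.16 to -0.01, adjusted p = 0.25) that did not pass. FOXA1 was at 318, 351 and 348 CPM and overlapped vehicle (-0.07, adjusted p = 0.28). The remaining 6 genes had log2 fold changes from -0.09 for NCOR1 to 0.05 for GATA3. Median log2 fold change over the 9 was -0.05, beside 0.00 over all genes, and 3 of the 9 did not overlap, beside 18.5% of all genes.

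Treatments were then set against each other, each comparison sharing libraries with those above. Between anastrozole and E2, 1 gene passed, TFAP2A, where 1.33% of all tested genes did. TFAP2A was at 107, 115 and 116 CPM with anastrozole, above every E2 library (log2 fold change 0.16, SE 0.05, adjusted p = 0.042). The call was lost in 4 of 8 alternative settings, with adjusted p from 0.0031 to 0.22 over the 8, and in 5 of 6 fits that left out a library, all but the one without anastrozole library a, where the log2 fold change ranged from 0.14 to 0.19. ESR1 was 0.12 higher on the log2 scale with anastrozole (SE 0.04, 95% interval 0.04 to 0.20, adjusted p = 0.18) and the libraries did not overlap. It passed with the GC trend removed (0.13, adjusted p = 0.016) and without anastrozole library c (0.15, 0.014). FOXA1 likewise passed with the GC trend removed (0.12, 0.011) and without anastrozole library a (0.18, 0.0023), and not as fitted (0.12, adjusted p = 0.12). The other 6 genes did not pass, with log2 fold changes from -0.04 for TFAP2C to 0.14 for NCOA2 (adjusted p = 0.27). ESR1, TFAP2A and NCOA2 did not overlap, 3 of 9 beside 13.1% of all genes.

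Adding anastrozole to E2 gave 1 call, NCOA3, where 6.74% of all tested genes passed. NCOA3 was at 199.7, 204 and 211 CPM with E2 and at 180.0, 193 and 199.8 CPM with both, a difference of -0.10 (SE 0.03, adjusted p = 0.037) with 1 library of each group overlapping. The call was lost in 6 of 8 alternative settings, with the GC trend removed (-0.05, adjusted p = 0.68, and 0.75 with the replicate letter also in the fit), with DESeq2 (0.12), limma-voom (0.18), all 12 libraries in the fit (0.13) or filterByExpr (0.05). It was also lost without E2 library b (-0.11, 0.077) or c (-0.08, 0.26), or without library a (-0.06, 0.32) or b (-0.11, 0.074) of the combined treatment. ESR1 differed by 0.05 (SE 0.03, 95% interval -0.01 to 0.12, adjusted p = 0.44). FOXA1, at 0.07 (adjusted p = 0.19), passed without library a of the combined treatment (0.11, 0.0058). The other 6 genes did not pass, with differences from -0.12 for NCOA1 to 0.06 for GATA3. NCOA1 was at 49.8, 51.1 and 50.3 CPM with E2 and 46.3, 46.8 and 46.6 CPM with both, 1 of 4 genes without overlap, beside 21.1% of all genes.

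Adding E2 to anastrozole also gave 1 call, TFAP2A, where 2.90% of all tested genes passed. TFAP2A fell by 12.4% (log2 fold change -0.19, SE 0.05, adjusted p = 0.0076), without overlap between the groups. Of the 8 alternative settings, limma-voom alone did not call it (adjusted p = 0.14), and it was lost without anastrozole library b (-0.18, 0.12) or without library b (-0.17, 0.14) or c (-0.18, 0.12) of the combined treatment. NCOA3, at -0.13, had an adjusted p of 0.069. It passed with all 12 libraries in the fit (-0.13, 0.036) and without anastrozole library c (-0.12, 0.038). ESR1 differed by -0.06 (SE 0.04, 95% interval -0.15 to 0.03, adjusted p = 0.61). The other 6 genes did not pass, with values from -0.10 for NCOA2 to 0.09 for TFAP2C. Groups did not overlap for 4 of the 9, beside 16.9% of all genes.

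**Figure D3:**
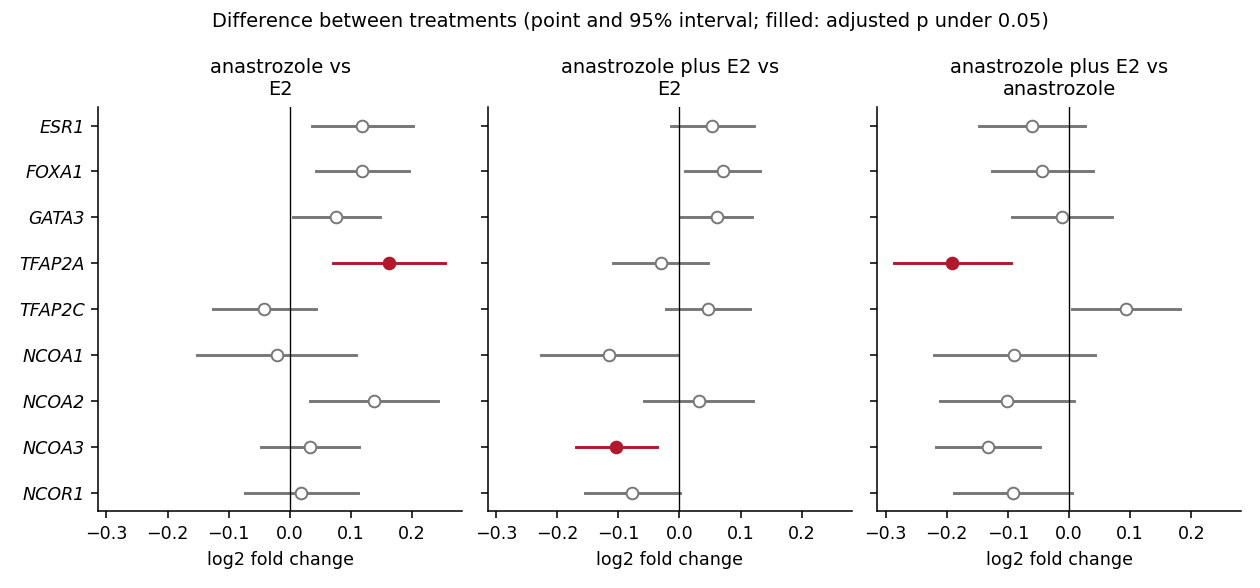
Log2 fold change between treatments with its 95% interval for the 9 genes; filled red points have an adjusted p under 0.05. TFAP2A is higher with anastrozole than with E2 and lower with both than with anastrozole, and NCOA3 is lower with both than with E2.

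Whether anastrozole acted alike with and without E2 was tested as an interaction over all 12 libraries, the log2 effect of anastrozole beside E2 minus its effect beside vehicle. NCOA3 and TFAP2C passed, 2 of 9, where 10.9% of all tested genes did. For NCOA3 the interaction was -0.22 (SE 0.06, adjusted p = 0.002), between effects of 0.12 without E2 and -0.10 with it. For TFAP2C it was 0.18 (SE 0.06, adjusted p = 0.025), between -0.13 without E2 and 0.05 with it. The NCOA3 call held with any 1 of the 12 libraries left out, whereas that of TFAP2C held in 6 of 12 such fits. It was lost without vehicle library a (0.17, 0.058) or c (0.18, 0.055), anastrozole library a (0.17, 0.069), E2 library a (0.16, 0.092), or library a (0.16, 0.069) or b (0.18, 0.059) of the combined treatment. FOXA1 passed without anastrozole library c (0.15, 0.019), and not as fitted (0.10, adjusted p = 0.23). For ESR1 the interaction was 0.08 (SE 0.06, 95% interval -0.03 to 0.19, adjusted p = 0.47), and with the GC trend removed it was 0.15 (adjusted p = 0.068), or 0.15 with the replicate letter also in the fit, where it passed (0.049). The remaining 5 genes did not pass, with interactions of 0.0034 for GATA3, -0.06 for TFAP2A, -0.16 for NCOA1, -0.04 for NCOA2 and -0.08 for NCOR1.

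Both interaction calls moved with GC content. Spearman's rho between the interaction and exon GC content was 0.708 across 10842 genes, and NCOA3 at 42.9% GC was above 31.2% of these genes and TFAP2C at 51.6% GC above 62.1%. With the GC trend removed, the interaction was -0.13 for NCOA3 (adjusted p = 0.12) and 0.12 for TFAP2C (0.19), and neither passed. The same coefficient was -0.533 for anastrozole against vehicle, -0.0261 for the combined treatment against vehicle, 0.113 for anastrozole against E2, 0.685 for the combined treatment against E2 and 0.571 against anastrozole.

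**Figure D4:**
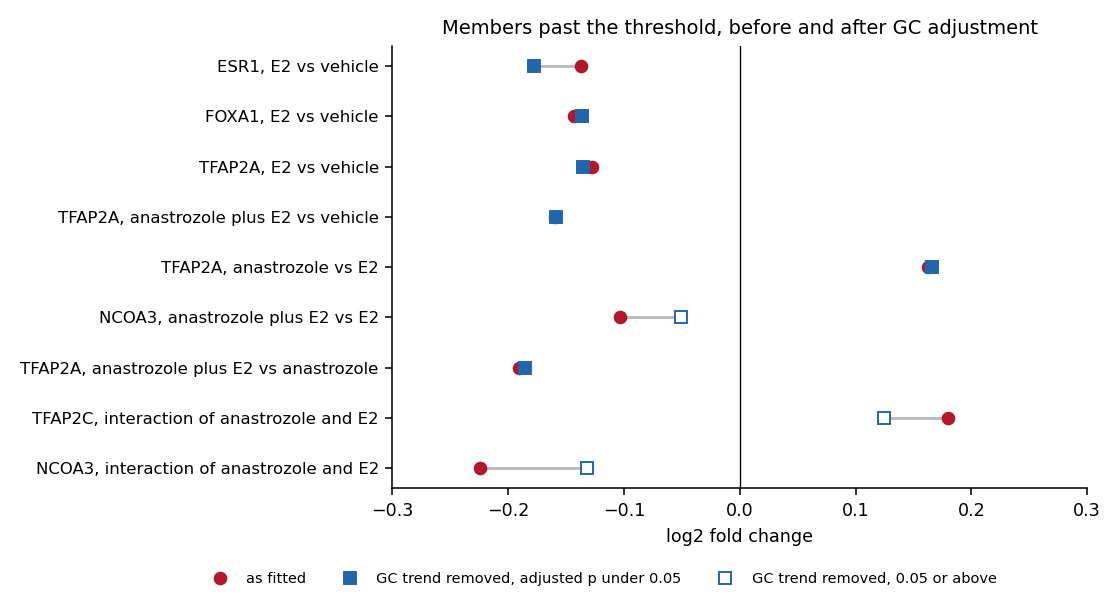
Log2 fold change (or interaction) of the genes past the threshold in each comparison, as fitted (red circles) and with each library's trend on GC content removed (blue squares, open where the adjusted p is 0.05 or above). The ESR1, FOXA1 and TFAP2A points stay past the threshold, and the 2 NCOA3 points and the TFAP2C point move toward 0.

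For scale, 5 textbook target genes of the receptor were read, picked after their values were seen. GREB1, an estrogen-induced coactivator of the receptor, was at 508, 532 and 525 CPM in vehicle, 470.1, 466 and 482 CPM with anastrozole alone. With E2 it was at 565, 580.1 and 564 CPM, and with both at 594, 598 and 585 CPM. It rose by 0.13 with E2 (adjusted p = 0.00073) and by 0.18 with both (4.3e-06), and fell by 0.14 with anastrozole (0.029), all on the log2 scale. Against vehicle with E2, GREB1 was the 1 of 5 to pass, and PGR, TFF1, MYC and CCND1 did not. PGR, the progesterone receptor gene, was lower with anastrozole (-0.13, adjusted p = 0.026). It is also 1 of the 7 luminal markers summed above. Alternative settings are not given for these 5 genes. In anastrozole against vehicle, limma-voom called 15 genes over the whole table (776 as fitted). MYC, a growth regulator, was at 43.1, 44.7 and 39.4 CPM in vehicle and 52.8, 55.0 and 53.0 CPM with both agents (0.34, adjusted p = 3.7e-07). TFF1 and CCND1 passed in none of the 7 comparisons. TFF1 was near the floor, at 2.10, 1.22 and 1.63 CPM in vehicle and 0.87, 1.31 and 0.96 CPM with anastrozole. Its fold changes were imprecise, as with anastrozole against vehicle (-0.68, SE 0.34, adjusted p = 0.32), so a response of TFF1 was not settled.

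A wider list of 64 other receptor cofactors was read beside these genes, as a description. Most of the 64, and all of the 9 genes, lie at 3 log2 CPM or more, as do 11037 of the 21132 tested genes. The shares of all tested genes are not matched for level, and the part of level in any gap was not tested. With E2, 11 rose and 9 fell, 31.2% of the list beside 12.0% of all tested genes, with a median log2 fold change of -0.035 beside 0.00. By class, 4 of 19 corepressors rose and 4 fell, 3 of 15 coactivators rose, 2 of 6 acetyltransferases and bromodomain proteins fell, 1 of 13 chromatin remodellers and histone modifiers rose and 1 fell, and 3 of 11 other DNA-binding partners rose and 2 fell. Among those with the smallest adjusted p were SPDEF, RUNX1 and TBL1XR1.

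SPDEF, an ETS factor of luminal epithelium, was at 256, 246 and 256 CPM in vehicle and at 194, 180.2 and 186 CPM with E2 (log2 fold change -0.44, SE 0.04, adjusted p = 1.1e-31). RUNX1, a runt-domain factor, went from 72.7, 80.8 and 75.0 CPM to 99.8, 96.5 and 100.4 CPM (0.37, SE 0.05, adjusted p = 1.8e-13). Neither gene overlapped between the groups, and both shifts were larger than any among the 9 genes in this comparison. TBL1XR1, a subunit of the corepressor complex that NCOR1 scaffolds, rose by 0.18 (adjusted p = 2.7e-07), and by 0.09 with the GC trend removed (0.018).

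Of the best known cofactors, E2 lowered the acetyltransferase gene EP300, which fell by 0.16 on the log2 scale (adjusted p = 0.0027). It raised NRIP1, a ligand-dependent corepressor, by 0.16 (0.00087) and MED1, the Mediator subunit that binds the receptor, by 0.10 (0.039). With the GC trend removed, EP300 stayed past the threshold (-0.17, adjusted p = 0.00036), while NRIP1 (0.08, 0.18) and MED1 (0.06, 0.29) did not. In that setting 12 of the 64 were called, beside 1592 genes over the whole table. DESeq2 called 12 of the 64 beside 1407 genes, and limma-voom 10 beside 1379.

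In the other comparisons fewer of the 64 passed. Anastrozole against vehicle gave 3 (4.69%, beside 3.67% of all genes), with KDM6A, a histone demethylase gene, higher (0.20, adjusted p = 0.014) and SPDEF (-0.23, 0.00018) and the corepressor gene CTBP1 (-0.25, 0.00057) lower, and 0 with the GC trend removed or with limma-voom. This count was 5 with all 12 libraries in the fit, 5 without vehicle library b, 0 without anastrozole library a and 10 without anastrozole library c. The combined treatment against vehicle gave 4 higher and 3 lower (10.9%, beside 5.04%), among them RUNX1 (0.43), SPDEF (-0.26) and the retinoic acid receptor gene RARA (0.29). It gave 11 with the GC trend removed and the replicate letter in the fit. NRIP1 was also higher there (0.13, adjusted p = 0.028). Anastrozole against E2 gave 2 higher, among them SPDEF (0.22), and 5 lower, among them RUNX1 (-0.40), RARA (-0.28) and NRIP1 (-0.15), which is 10.9% beside 1.33%. It gave 4 without anastrozole library b, E2 library b or E2 library c, 4 each with filterByExpr, DESeq2 and the replicate letter in the fit, and 3 with limma-voom. RUNX1 with anastrozole, at 72.6, 74.9 and 75.9 CPM, overlapped the vehicle libraries.

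The combined treatment against E2 gave 8 higher and 5 lower (20.3%, beside 6.74%), among them TBL1XR1 (-0.16), SPDEF (0.18) and the acetyltransferase gene KAT2A (0.17, higher), with MED1 lower (-0.11). With the GC trend removed 0 of the 64 passed, with DESeq2 5, with limma-voom 2, with all 12 libraries in the fit 6, without E2 library b 7, and without E2 library c 4. Against anastrozole the combined treatment gave 6 higher and 3 lower (14.1%, beside 2.90%), among them RUNX1 (0.47), RARA (0.43) and the histone demethylase gene KDM4B (0.28). The count was 15 without anastrozole library c, 5 without anastrozole library a or b or library b of the combined treatment, 4 without its library c, and 3 with limma-voom. The interaction passed for 18 of the 64 (28.1%, beside 10.9%), 10 positive and 8 negative, among them SPDEF (0.40), CTBP1 (0.37) and TBL1XR1 (-0.26), with MED1 at -0.23, and for 5 with the GC trend removed. MED1 was among those 5 (-0.16, adjusted p = 0.03), whereas SPDEF (0.087), CTBP1 (0.17) and TBL1XR1 (0.25) no longer passed.

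**Figure D5:**
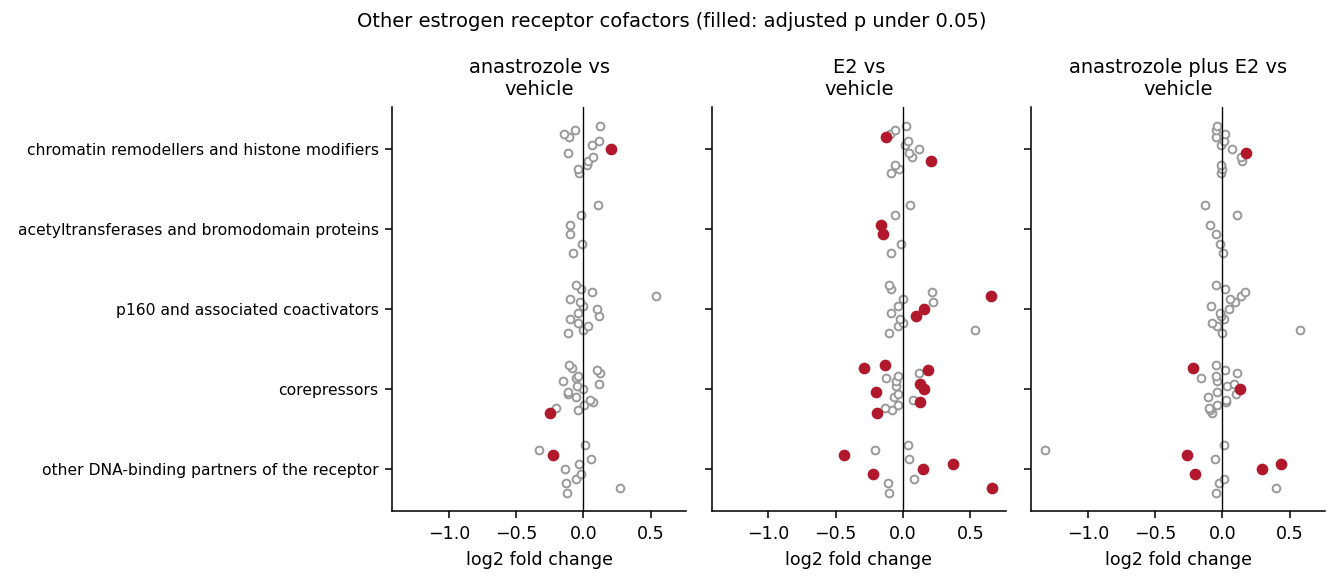
Log2 fold change against vehicle of the 64 other receptor cofactors, by class (vertical axis) and treatment (panels); filled red points have an adjusted p under 0.05. E2 has 20 filled points on both sides of 0, anastrozole has 3, and anastrozole plus E2 has 7.

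Over the 12 libraries the 9 genes did not move as one block. Pearson's r of log2 CPM, given as a description since libraries share depth and GC trends, was 0.50 between ESR1 and FOXA1, 0.64 between ESR1 and TFAP2A and -0.10 between ESR1 and GATA3. Within groups these values were -0.11, 0.04 and -0.71. NCOA3 followed NCOR1 (0.67 over all, 0.80 within groups) and ran against TFAP2C (-0.70 over all, -0.22 within groups). Among 6779 other genes of at least 5 log2 CPM, the patterns most like ESR1 were those of MAT2A (r = 0.94), GALNT10 (0.91) and NLRP2 (0.87). For FOXA1 they were EFCAB4A (0.92), TSC22D4 (0.89) and CDC42BPB (0.88), for GATA3 CDH3 (0.92), MAPK3 (0.85) and KRT23 (0.84), and for TFAP2A ZNF737 (0.90), SLC25A16 (0.88) and CCDC125 (0.87).

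The same search gave DCTN3 (0.95), CTCF (0.91) and HNRNPAB (0.91) for TFAP2C and TAOK1 (0.92) and ANO6 (0.92) for NCOA3. NCOA1 was most like PANK3 (0.90), SLC35A3 (0.89) and B4GALT4 (0.89), NCOA2 like PHKB (0.81), DOPEY2 (0.79) and USP38 (0.79), and NCOR1 like UHRF1BP1 (0.93), ARID2 (0.93) and ARFGEF2 (0.92). TAOK1 and ANO6 had exon GC contents of 40.9% and 41.9%, close to its own 42.9%. The part of the libraries' GC trends in these values was not tested.

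Some exon bases of these genes are shared with neighbours on the opposite strand, and whether the counting used strand is not given in the sources used here. Of TFAP2A's exon bases 11.4% lie in TFAP2A-AS2 and 5.33% in TFAP2A-AS1, of NCOA3's 2.94% in SULF2, and of NCOR1's 2.18% in TTC19 and 2.06% in PIGL. TFAP2A-AS1 had a log2 fold change of -0.15 (SE 0.13, adjusted p = 0.52) with E2, and neither it nor SULF2, TTC19 or PIGL passed in any comparison. TFAP2A-AS2, which has the larger overlap with TFAP2A, was not in the count table and could not be tested. The part of antisense reads in the TFAP2A values was not tested.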

How the data were processed

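RNA of 12 T47D libraries was sequenced, 3 per group. Per the submitters' processing notes the authors aligned reads with TopHat2 2.0.14 and Bowtie2 2.2.6 to hg19 and counted them with HTSeq, whose version, strand setting and annotation are not given in the sources used here. The authors deposited counts, whole numbers per gene without normalization. The 5 summary lines, which name no gene and took between 66.5% and 67.3% of each library's total, were left out.

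Genes at 0 in all libraries (4238) were removed. For a comparison of 2 groups, edgeR 4.0.16 (R 4.3.3) was run on their 6 libraries (TMM scaling, robust quasi-likelihood F test, 2-sided, Benjamini-Hochberg over 21132 genes, threshold 0.05), and the interaction on all 12. SE is the size of the log2 fold change over the square root of F, and intervals are 95%. CPM values are TMM-scaled, and TPM uses counts per exon base. Exon lengths, GC content and positions came from GENCODE release 44 mapped to GRCh37, matched for 21539 genes by symbol and 1450 by an older symbol.

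The alternatives were DESeq2 size factors, edgeR's filterByExpr, the DESeq2 1.42.0 test, limma-voom (limma 3.58.1), all 12 libraries in a fit, the replicate letter as a block, removal of each library's GC trend (lowess, span 0.5, genes of at least 3 log2 CPM), that removal with the block, leaving out each library in turn, and CPM by total count. All 9 genes are accounted for in every comparison, by value or range, with full statistics for those past the threshold and for ESR1. Of the 64 cofactors, up to 4 with the smallest adjusted p per comparison and EP300, NRIP1 and MED1 (where past the threshold, or in the E2 comparison) are named, apart from some that are not reported here. The genes and lists were chosen with earlier results of these data known. The tests were checked on simulated counts.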

Additional observations from a re-analysis of the deposited data

Results flagged for a closer look

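In a pair of genes the effect of anastrozole differed beside E2 and beside vehicle by the interaction test (edgeR, all 12 libraries). For NCOA3 the difference was -0.2244 on the log2 scale (SE 0.06, adjusted p = 0.002), with levels of 192 ± 10.1 CPM in vehicle, 209 ± 3.92 with anastrozole, 205 ± 5.78 with E2 and 191 ± 10.0 with both (SD, n = 3). For TFAP2C it was 0.1801 (SE 0.06, adjusted p = 0.025), with levels of 170.3 ± 1.47, 155.5 ± 5.10, 161 ± 4.01 and 166 ± 2.90 CPM in the same order. Neither passed with the GC trend of each library removed (NCOA3 -0.13, adjusted p = 0.12; TFAP2C 0.12, adjusted p = 0.19).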

How the results depend on the processing

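ESR1 and FOXA1 were lower with E2 than with vehicle in all 8 alternative settings and all 6 fits that left out a library. Of 495 log2 fold changes of the 9 genes under the settings other than leaving out a library, 455 kept their direction and their side of the threshold, 20 lost the call, 10 gained it and 10 changed sign, none of the last called as fitted. The lowest count of any of the 9 genes in a library, 495, and the number of libraries a group, 3, set the precision. The cause of each change below was not tested.

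Of the 9 genes, the number called against vehicle with anastrozole was 2 with all 12 libraries in the fit and 1 with the GC trend removed (0 as fitted). With anastrozole plus E2 against vehicle it was 0 with DESeq2 and 0 with limma-voom (1 as fitted). For anastrozole against E2 it was 0 with filterByExpr, DESeq2 or limma-voom and 3 with the GC trend removed (1 as fitted). For anastrozole plus E2 against E2 it was 0 with filterByExpr, DESeq2, limma-voom, all 12 libraries or the GC trend removed (1 as fitted). Against anastrozole it was 0 with limma-voom and 2 with all 12 libraries (1 as fitted). For the interaction it was 0 with the GC trend removed (2 as fitted).

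The labels do not say whether the letters a, b and c pair the samples, and the values here do not settle it. Correlations of deviations from group means between libraries of the same letter ran from -0.195 to 0.184 over 11037 genes. Between vehicle and the combined treatment they were positive for a, b and c (0.139, 0.0673 and 0.0346). Between vehicle and E2 they were negative (-0.0528, -0.0795 and -0.0586). With that letter entered as a replicate block, the number called was 0 for anastrozole against E2 (1 as fitted) and 2 for E2 against vehicle (3 as fitted), TFAP2A being lost in both, and the genes called over the whole table for anastrozole against E2 were 180 (280 as fitted). With the GC trend removed and the replicate block together it was 1 for anastrozole against vehicle, 3 for anastrozole against E2, 0 for anastrozole plus E2 against E2 and 1 for the interaction, which was ESR1 (0.15, adjusted p = 0.049) and neither NCOA3 nor TFAP2C.

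With a library left out, the number called ranged from 0 to 1 for anastrozole, from 2 to 3 for E2 and from 0 to 1 for both against vehicle, from 0 to 2 for anastrozole against E2, from 0 to 1 for both against E2, from 0 to 2 for both against anastrozole, and from 1 to 3 for the interaction. Signs changed in these fits for ESR1 (-0.0545 to 0.0048), FOXA1 (-0.0804 to 0.0324) and NCOR1 (-0.0359 to 0.0556) with anastrozole against vehicle, GATA3 (-0.0475 to 0.0127), NCOA2 (-0.0933 to 0.0001) and NCOR1 (-0.047 to 0.0428) with E2, and NCOA1 (-0.0683 to 0.0006), NCOA2 (-0.0636 to 0.031) and NCOA3 (-0.0408 to 0.0361) with both. They also changed for NCOR1 between anastrozole and E2 (-0.0153 to 0.0397), NCOA2 between both and E2 (-0.0067 to 0.0672), FOXA1 (-0.1068 to 0.0053) and GATA3 (-0.032 to 0.0119) between both and anastrozole, and the GATA3 interaction (-0.0215 to 0.0351).

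Other sign changes were NCOR1 with anastrozole under limma-voom (0.0002), GATA3 with E2 with the GC trend removed (0.0506, and 0.051 with the replicate block), and in the interaction GATA3 under filterByExpr (-0.0019) and, with the GC trend removed, GATA3 (-0.111, and -0.1109 with the block), NCOA2 (0.0251 and 0.0257) and NCOR1 (0.004 and 0.0026).

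Over all genes, edgeR called 776, 2537, 1065, 280, 1424 and 612 for anastrozole, E2 and both against vehicle, anastrozole against E2, and both against E2 and against anastrozole. DESeq2 called 238, 1407, 476, 110, 638 and 222, and limma-voom 15, 1379, 347, 70, 451 and 90. With filterByExpr there were 419 for anastrozole against vehicle, 160 for anastrozole against E2 and 295 for both against anastrozole, and with all 12 libraries 1229 for anastrozole against vehicle and 824 for both against E2. With the GC trend removed there were 1592 for E2 against vehicle, 515 for anastrozole against E2, 186 for both against E2 and 552 for the interaction (2295 as fitted), and for anastrozole against vehicle 324 higher and 290 lower in place of 296 higher and 480 lower. With a library left out, anastrozole against vehicle gave 287 (without vehicle a), 191 (vehicle c), 246 (anastrozole a), 301 (anastrozole b) or 1651 (anastrozole c), both against vehicle 682 (both b) or 686 (both c), anastrozole against E2 107 (E2 b), 124 (E2 c), 134 (anastrozole b) or 177 (E2 a), and both against E2 885 (E2 c) or 935 (both c). Both against anastrozole gave 310, 263 and 1706 without anastrozole a, b and c and 348, 280 and 234 without a, b and c of both. The shares of all genes given beside the 9 genes and beside the 64 cofactors move with these counts.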
